A study of Mus musculus with 6 samples.

Results

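The integrated stress response is a programme in which several kinases, each sensing another kind of stress, phosphorylate the translation factor eIF2. General protein synthesis then slows, while the mRNA of the transcription factor ATF4 is translated more, so that ATF4 activity is set largely at the protein level and is not read directly from Atf4 mRNA. ATF4 and its partners switch on genes for amino acid synthesis, folate metabolism and secreted hormones, and in heart muscle the programme is known as a response to impaired mitochondria.

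The data hold 10 genes of this response, taken by their names from a list drawn up with earlier results of these data known. They are the transcription factors Atf4, Atf5, Atf3 and Ddit3, the feedback regulator Trib3, the secreted hormone Gdf15, and the enzymes Asns, Phgdh, Psat1 and Mthfd2. These names take 11 of the 54532 rows of the count table, since Ddit3 is listed on 2 rows. After the filter on low counts 14774 genes could be tested, and each of the 10 names was among them. The row not tested is a second model named Ddit3 (ENSMUSG00000116429), which lies inside the first and had 0 counts in all 6 libraries.

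Left ventricles of 3 HINT2-TG (TG) mice and 3 non-transgenic (NTG) mice were profiled by RNA-seq of poly-A RNA, with 1 library per heart. HINT2 is a mitochondrial histidine triad nucleotide-binding protein, and the comparison asks what its overexpression in cardiomyocytes does to gene expression in the pressure-loaded heart. The genotype label of NTG is C57BL/6J and that of TG is HINT2CTG-Myh6Cre. In TG mice the CAG promoter drives a human HINT2 sequence once a floxed stop has been removed by Cre, which acts in cardiomyocytes from the Myh6 promoter after tamoxifen. Whether the NTG mice received tamoxifen or carried Cre is not given in the sources used here, so the effects of transgene, Cre and tamoxifen cannot be told apart. All 6 hearts came from male mice that were 8 to 10 weeks old at surgery, all had undergone aortic banding (AB), which narrows the aorta and raises the load on the ventricle, and all were taken 4 weeks later. Sham-operated hearts were not analysed here, so no level below is a response to AB.

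The libraries held 14863568 to 17581220 counts on genes. Mouse Hint2 had 12, 545 and 559 counts in the libraries labelled NTG 1, NTG 2 and NTG 3, and 793, 828 and 859 counts in TG 1, TG 2 and TG 3. The library labelled NTG 1 therefore stood far below the other NTG libraries in this gene, and whether this heart has the genotype of its label is in doubt. It is kept in the NTG values below under its label, NTG 1. Whether reads of the human transgene were counted on the mouse gene is not given. Atrial transcripts set some libraries apart, with Myl7, a light chain of atrial myosin, at 19.5 CPM (counts scaled to library size) in NTG 1, 7.67 in TG 2 and 64.4 in TG 3, against 0.159, 0 and 1.59 in NTG 2, NTG 3 and TG 1, and Sln and Myl4 were high in the same 3 libraries. Dkk3, the fourth atrial marker listed, did not follow this split and was highest in NTG 2, at 88.0 CPM. Their part in the values below was not tested. Cardiomyocyte markers were abundant in every library, summing to 16385 to 26428 CPM in NTG and 25898 to 31796 in TG, and 8 of 8 had a fitted log2 fold change above 0. Fibroblast markers summed to 3753 to 8164 CPM in NTG and 1876 to 3209 in TG, 7 of 7 below 0, macrophage markers to 807 to 1480 and 596 to 832, 7 of 7 below 0, and erythroid markers to 1310 to 2245 and 762 to 908, 5 of 5 below 0. None of the listed markers was at 0 in every library. In bulk tissue, fewer cells of a type and less RNA per cell cannot be told apart, and the part of cell composition in the values below was not tested.

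No member passed the test between TG and NTG. The quasi-likelihood test of edgeR was used, and a gene was called when its Benjamini-Hochberg adjusted p over all genes tested was under 0.05 and its log2 fold change was above 0.5 or below -0.5. By this rule 0 of the 10 members were called, beside 0 of 14774 genes (0.0%). DESeq2 also called 0 of 10 members, beside 1.54% of all genes higher and 2.4% lower in TG, and limma-voom called 0 of 10 members and 0 of all genes. At an unadjusted p under 0.05, 3 members were higher in TG, namely Atf5, Ddit3 and Phgdh, and 0 were lower, beside 8.83% of all genes higher and 9.76% lower. Without regard to any test, 9 of 10 members had a fitted log2 fold change above 0, beside 48.7% of all genes, with a median of 0.25 over the members and -0.0081 over all genes. Gdf15 was the member below 0, at the lowest fitted value of the list. Without TG 2 the median over the members was 0.097. Without the library labelled NTG 1, whose Hint2 count stood apart, it was 0.24 and edgeR called 0 of 10 members, beside 5.52% of all genes, with adjusted p from 0.114 for Ddit3 (log2 fold change 0.64) to 0.987 for Trib3 (0.009).

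**Figure D1:**
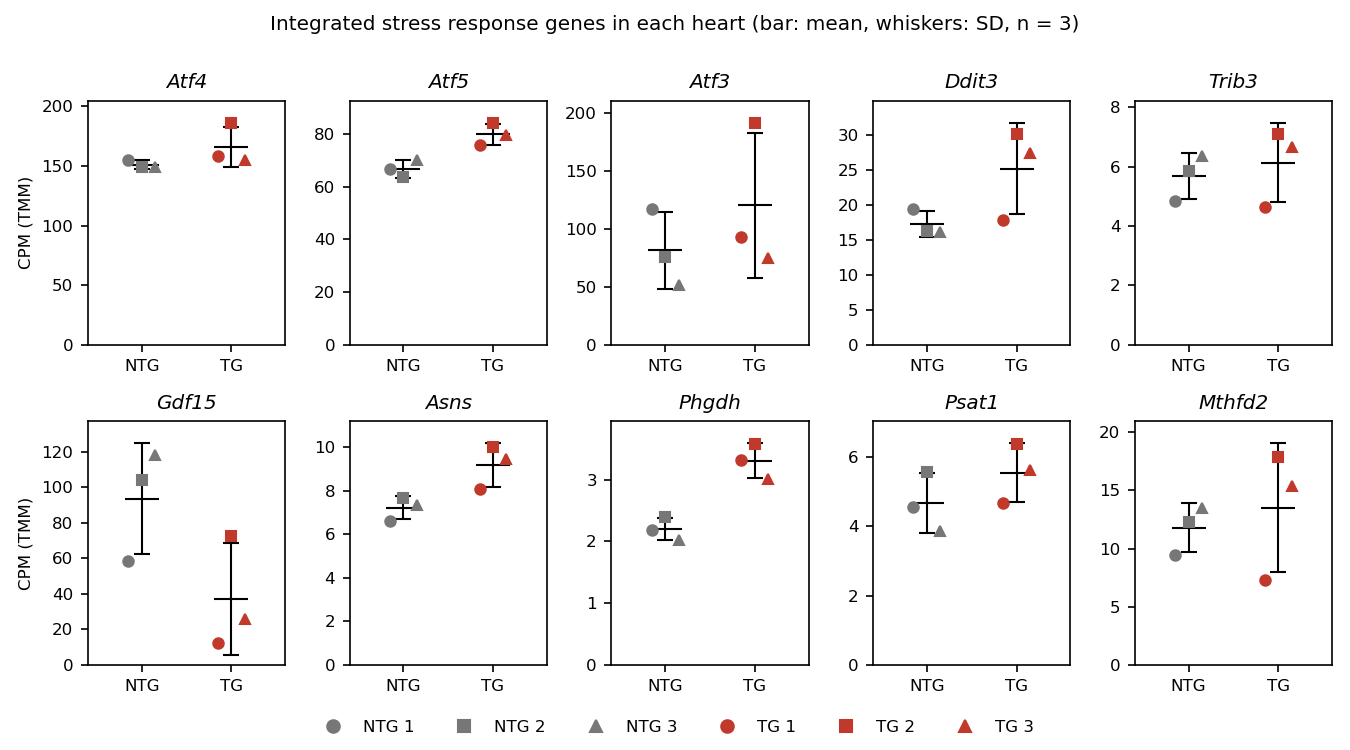
Level of each of the 10 genes in each heart, in CPM scaled by TMM on a linear axis from 0, with the bar at the group mean and whiskers of 1 SD (n = 3). The red square marks TG 2, which is the highest TG library in all 10 panels, and the grey square marks NTG 2. Gdf15 is the panel in which the TG mean, 36.9, lies below the NTG mean, 93.5.

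Atf4, the central transcription factor of the response, was the most abundant member per length, at a mean of 67.3 RPKM, which is CPM divided by gene length in kilobases, over the 6 libraries. The gene (ENSMUSG00000042406) lies at chr15:80255184-80257541 on the plus strand of GRCm38, the build of all coordinates given here. Atf4 was measured at 155, 149 and 149 CPM in NTG 1 to 3 and at 158, 186 and 155 CPM in TG 1 to 3. TG 2 stood above the other 5 libraries, which lay within 10 CPM of each other, and the lowest TG value exceeded the highest NTG value by less than 1 CPM. The fitted log2 fold change was 0.14 (SE 0.10, 95% interval -0.096 to 0.38, edgeR adjusted p = 0.475), and it was 0.053 without TG 2. ATF4 protein was not measured here.

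Atf5, a relative of ATF4 that is linked to the mitochondrial stress response, had the smallest SE of the members. Atf5 (ENSMUSG00000038539, chr7:44812256-44816658, minus strand) stood at 66.8, 63.6 and 70.1 CPM in NTG and at 75.9, 84.2 and 79.6 CPM in TG. Every TG library lay above every NTG library. The means were 66.8 ± 3.28 and 79.9 ± 4.13 CPM (SD, n = 3 each), a fitted fold of 1.2, and the log2 fold change was 0.26 (SE 0.087, 95% interval 0.058 to 0.46). Its edgeR adjusted p was 0.212, and leaving out any 1 library kept the log2 fold change between 0.22 and 0.29. Atf5 overlaps Nup62 on the opposite strand, which had 433 to 594 counts, and the strand setting of the counting is not given, so reads of the 2 genes may not be fully separated.

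Atf3, a factor that is induced rapidly by many kinds of stress, varied more between hearts than between groups. The values were 117, 75.5 and 51.5 CPM in NTG and 93.2, 191 and 74.8 CPM in TG (ENSMUSG00000026628, chr1:191170296-191218039, minus strand). TG 2 was the highest library and NTG 1 the next, and the groups overlapped. The log2 fold change of 0.56 (SE 0.43, 95% interval -0.46 to 1.58, edgeR adjusted p = 0.499) was 0.048 without TG 2 and 0.91 without NTG 1, so it rested on which of these hearts was kept.

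Ddit3 encodes CHOP, a factor downstream of ATF4 that is associated with cell death under lasting stress. Ddit3 (ENSMUSG00000025408, chr10:127290774-127296288, plus strand) was found at 19.4, 16.3 and 16.1 CPM in NTG and at 17.9, 30.2 and 27.5 CPM in TG. TG 1 lay among the NTG values, while TG 2 and TG 3 lay above all of them. In the fit its log2 fold change was 0.55 (SE 0.20, 95% interval 0.096 to 1.01, edgeR adjusted p = 0.218). With DESeq2 and TG 1 left out, Ddit3 was called at 0.75 (adjusted p = 0.0124), a setting in which 0.684% of all genes were called higher, and this call rests on leaving out the TG heart that resembled NTG. The gene overlaps Mars on the opposite strand, with 649 to 904 counts, and its adjusted p ranged from 0.0124 to 0.515 over the settings tried.

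Trib3, a pseudokinase that restrains ATF4 and CHOP, was measured at 4.85, 5.84 and 6.36 CPM in NTG and at 4.62, 7.11 and 6.67 CPM in TG (ENSMUSG00000032715, chr2:152337422-152344032, minus strand). TG 1 was the lowest library and TG 2 the highest, so the TG hearts enclosed the NTG hearts. Its fitted log2 fold change was 0.11 (SE 0.22, 95% interval -0.40 to 0.62, edgeR adjusted p = 0.807). With edgeR it was 0.27 without TG 1 and 0.009 without NTG 1, and it changed sign, to -0.01, without TG 2.

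Gdf15, a hormone released by stressed tissue that acts on the hindbrain to lower food intake, differed most in size and ran against the rest of the list. Gdf15 (ENSMUSG00000038508, chr8:70629393-70632456, minus strand) was measured at 58.4, 104 and 118 CPM in NTG and at 12.3, 72.4 and 26.1 CPM in TG. TG 1 and TG 3 lay below all NTG libraries, whereas TG 2 lay above NTG 1, so the groups overlapped. The highest TG library was 5.87 times the lowest, and the highest NTG library 2.02 times the lowest. The means were 93.5 ± 31.2 in NTG and 36.9 ± 31.5 CPM in TG (SD, n = 3 each), a fitted level 2.52-fold higher in NTG.

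For Gdf15 the fitted log2 fold change was -1.33 (SE 0.61, 95% interval -2.80 to 0.13, edgeR adjusted p = 0.298, DESeq2 adjusted p = 0.328), and the two-sided exact permutation test over the hearts gave p = 0.2, where 0.1 is the smallest that 3 against 3 allows. Gdf15 was called by DESeq2 without TG 2, and by edgeR only without both TG 2 and NTG 1. Without TG 2 the log2 fold change was -2.28 with edgeR (adjusted p = 0.147) and -2.27 with DESeq2 (adjusted p = 6.67e-07), where DESeq2 called 3.29% of all genes lower. With NTG 1 and TG 2 left out together, edgeR gave -2.52 (adjusted p = 0.0451) and called 5.57% of all genes lower. Over all settings tried the adjusted p ranged from 6.67e-07 to 0.75. The fibroblast and macrophage markers given above also stood lower in TG, and their part in the Gdf15 values was not tested.

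Asns, the enzyme that makes asparagine and a much used readout of ATF4 activity, stood at 6.62, 7.65 and 7.35 CPM in NTG and at 8.08, 10 and 9.44 CPM in TG (ENSMUSG00000029752, chr6:7675169-7693254, minus strand). All TG libraries lay above all NTG libraries. The fit gave a log2 fold change of 0.35 (SE 0.16, 95% interval -0.011 to 0.71, edgeR adjusted p = 0.279), between 0.28 and 0.43 with any 1 library left out.

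Phgdh, the first enzyme of serine synthesis from glycolysis, had the largest positive log2 fold change of the members but was among the least abundant, at 32, 45 and 35 counts in NTG and 46, 63 and 49 in TG. In CPM these were 2.18, 2.39 and 2.02 against 3.32, 3.58 and 3.02 (ENSMUSG00000053398, chr3:98313170-98339990, minus strand). The groups did not overlap. The fitted fold was 1.5, a log2 fold change of 0.59 (SE 0.23, 95% interval 0.068 to 1.11, edgeR adjusted p = 0.23), and it stayed between 0.52 and 0.65 with any 1 library left out. Together with Atf4, Atf5 and Asns this made 4 of 10 members whose TG hearts all lay above the NTG hearts, and 0 with the reverse order, beside 11.2% and 12.3% of all genes tested. For each of these 4 the exact permutation test gave p = 0.1, the smallest possible here.

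Psat1, the next enzyme of the serine pathway, did not share this separation. Psat1 (ENSMUSG00000024640, chr19:15904678-15947337, minus strand) stood at 4.57, 5.58 and 3.88 CPM in NTG and at 4.69, 6.37 and 5.62 CPM in TG. The ranges overlapped, and the log2 fold change was 0.25 (SE 0.22, 95% interval -0.25 to 0.75, edgeR adjusted p = 0.552), between 0.13 without NTG 3 and 0.40 without NTG 2.

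Mthfd2, a mitochondrial enzyme of folate metabolism that is low in most adult tissues, was lowest in TG 1 among the TG hearts, as were 6 other members. Mthfd2 (ENSMUSG00000005667, chr6:83305691-83325908, minus strand) was found at 9.49, 12.3 and 13.5 CPM in NTG and at 7.28, 17.9 and 15.4 CPM in TG. TG 1 was the lowest library of the 6 and TG 2 the highest. The log2 fold change was 0.20 (SE 0.32, 95% interval -0.54 to 0.94, edgeR adjusted p = 0.754), and it changed sign, to -0.050, without TG 2.

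**Figure D2:**
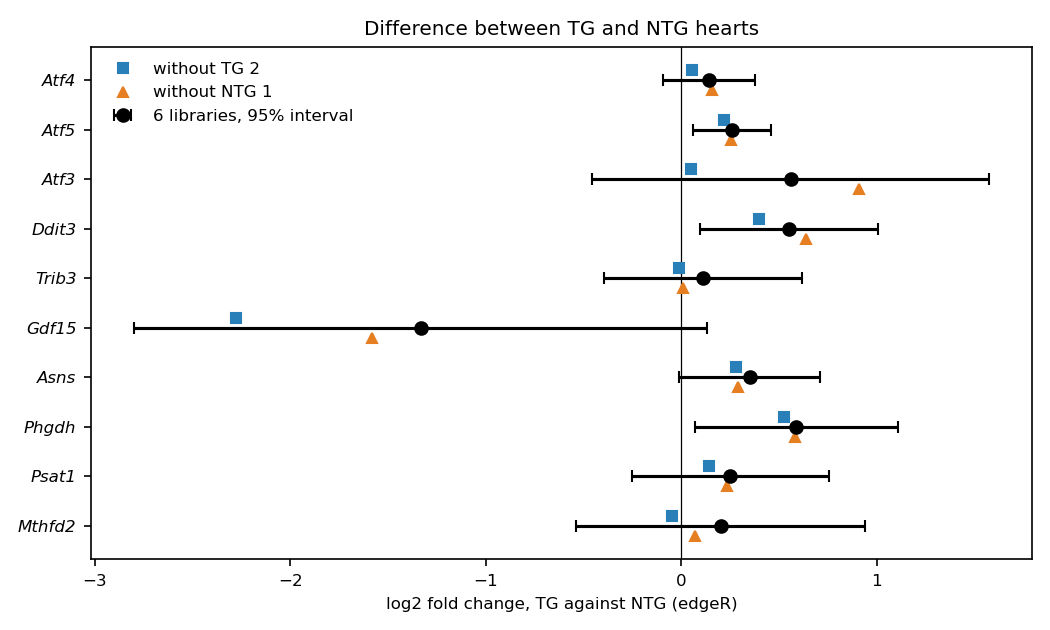
Fitted log2 fold change of each gene, TG against NTG, by edgeR on 6 libraries (black, with the 95% interval), without TG 2 (blue square) and without NTG 1 (orange triangle). The interval excludes 0 for Atf5, Ddit3 and Phgdh before adjustment over all genes, and the points without TG 2 lie nearer to 0 for 9 of the 10 genes and farther from it for Gdf15.

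Per length, the members spanned a wide range of levels. Mean RPKM over the 6 libraries was 67.3 for Atf4, 46.6 for Atf3, 36.8 for Atf5, 35.2 for Gdf15 and 12.4 for Ddit3. The enzymes and Trib3 were scarcer, at 3.63 for Mthfd2, 2.99 for Asns, 2.78 for Trib3, 1.2 for Psat1 and 1.11 for Phgdh. The library values of neighbours in this order overlapped, except that Ddit3 lay above Mthfd2 and Trib3 above Psat1 in every library, so the order of the other neighbours is not resolved. The place of Gdf15 differed between the groups, at a mean of 50.5 RPKM in NTG, above Atf3 at 37.7 and Atf5 at 33.5, and at 19.9 in TG, below Atf3 at 55.5 and Atf5 at 40.1, and its values also overlapped those of Atf4. Among other genes farther apart in the order, Atf4 lay above Atf5 in every library, and Atf4, Atf3 and Atf5 each lay above Ddit3.

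The TG hearts differed from each other in the levels of the members. TG 2 was the highest of the 3 TG libraries for 10 of 10 members, beside 35.3% of all genes tested, and the highest of all 6 libraries for 9 of 10, beside 10.9%. TG 1 was the lowest TG library for 7 members and TG 3 for 3, beside 31.1% and 33.8% of all genes. On the scale of log2 CPM minus the mean of the 6 libraries, the median over the members was -0.13, -0.085 and -0.11 in NTG 1 to 3 and -0.055, 0.36 and 0.16 in TG 1 to 3. The difference between TG 1 and TG 2 thus exceeded that between TG 1 and any NTG heart. TG 2 had the lowest summed cardiomyocyte markers of the TG libraries, 25898 CPM against 31796 in TG 1 and 31325 in TG 3, the lowest share of counts on mitochondrial genome transcripts, 16% against 21.5% and 20.3%, and the highest summed fibroblast markers, 3209 CPM against 2026 and 1876. The part of these values in the levels of the members was not tested.

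**Figure D3:**
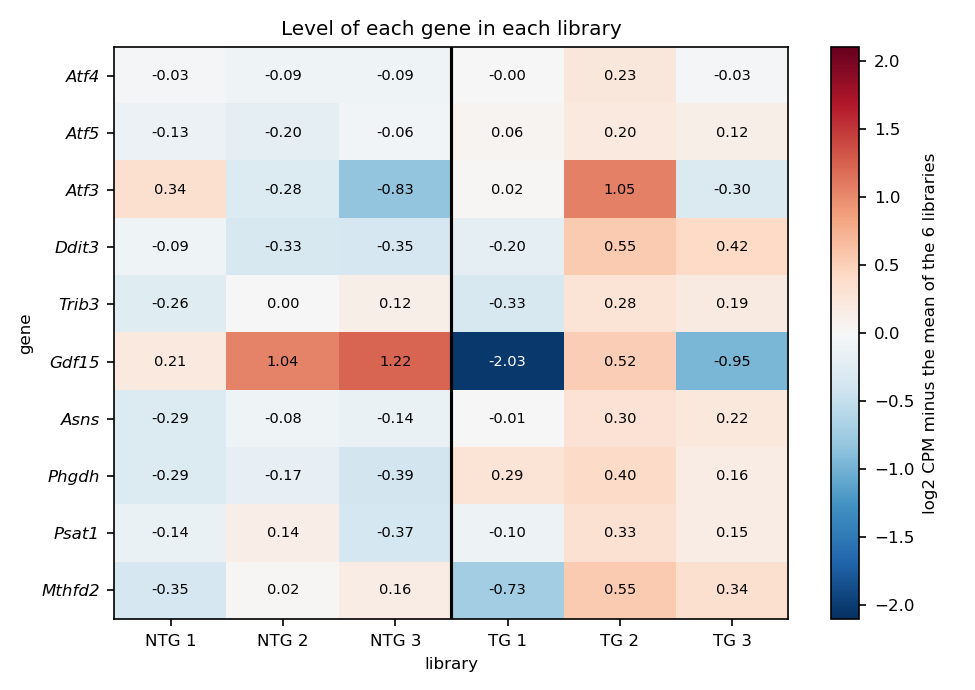
Log2 CPM of each gene in each library minus the mean of the 6 libraries, with NTG to the left and TG to the right of the black line, red above and blue below that mean. The TG 2 column is above 0 in all 10 rows, and the Gdf15 row runs from -2.03 in TG 1 to 1.22 in NTG 3.

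ATF4 binds as a dimer with C/EBP factors to a composite element, and the promoters of the members were searched for its letters TGATGNAA and for the ATF/CRE palindrome TGACGTCA on both strands. RefSeq promoters of GRCm38.p6, from 250 bases before to 50 bases after a start, were given for all 10 members, 13 promoters in total. TGATGNAA was present in 3 of these 13, those of Atf3, Trib3 and Asns, and in 3.97% of all 32851 promoters of the same length. TGACGTCA was in 0 of 13 and in 1.79% of all promoters. The 3 matches are shown because they are the places in these windows with the letters of the element. Each line holds 30 bases of the minus strand, on which all 3 genes lie, with the match in capitals.
Atf3 at chr1:191183425-191183454: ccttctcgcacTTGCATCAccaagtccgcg
Trib3 at chr2:152344028-152344057: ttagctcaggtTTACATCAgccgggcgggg
Asns at chr6:7693214-7693243: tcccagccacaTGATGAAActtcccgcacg
In Asns the element reads in the direction of the gene and starts 23 bases before the RefSeq start, inside an exon of the GENCODE model. In Atf3 and Trib3 it reads on the opposite strand. The Atf3 match starts 110 bases before the start and lies in no exon of GENCODE but within the gene, and the Trib3 match starts at base 15 of the RefSeq transcript, outside the GENCODE gene. The log2 fold changes of these 3 genes, 0.56 for Atf3, 0.11 for Trib3 and 0.35 for Asns, lay within the range of the members without a match. A match describes letters only, and binding was not measured.

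The rest of the pathway was followed in 109 further genes in 7 lists by role, of which 104 could be tested. By edgeR 0 of them were called, and at an unadjusted p under 0.05 there were 6 higher and 5 lower of 104 in TG, both smaller shares than the 8.83% and 9.76% of all genes. DESeq2 called 1 higher and 2 lower of 104, beside 1.54% and 2.4% of all genes. The fitted log2 fold change was above 0 for 50 and below 0 for 54, with a median of -0.005, so the upward lean of the 10 members was not seen over these genes as a whole.

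Among the genes that sense stress and act on eIF2, the 18 tested were split 10 above and 8 below 0, with a median log2 fold change of 0.024. Eif2b4, a subunit of the exchange factor that recharges eIF2 and that phosphorylated eIF2 blocks, was at 34.5, 30.7 and 33.1 CPM in NTG and at 44.1, 46.5 and 45.6 CPM in TG. The groups were separated by more than their own spread. The fit gave 0.47 on the log2 scale (SE 0.089, edgeR adjusted p = 0.196, DESeq2 adjusted p = 0.0074), under the fold limit for a call, and DESeq2 kept its adjusted p under 0.05 in 2 of the 6 fits with 1 library left out. Dele1, which relays mitochondrial stress to the eIF2 kinase HRI, was at a log2 fold change of 0.41 (SE 0.20, edgeR adjusted p = 0.319), between 0.21 without NTG 2 and 0.63 without NTG 1. DESeq2 called Dele1 without NTG 1 (adjusted p = 0.0131), a setting in which 1766 of 14774 genes were called.

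The other regulators and hormones linked to ATF4 stood 4 above and 9 below 0 of 13 tested, with a median of -0.075. With edgeR this median was -0.169 without NTG 1 and changed sign, to 0.036, without NTG 2. Nupr1, a stress-induced chromatin protein, was measured at 27.1, 58.4 and 41.0 CPM in NTG and at 12.6, 19.5 and 15.9 CPM in TG. NTG 2, its highest library, also had the highest summed fibroblast and macrophage markers, 8164 and 1480 CPM, and the lowest cardiomyocyte sum, 16385 CPM. The part of these values in the level of Nupr1 was not tested. Every TG heart was below every NTG heart, and the log2 fold change was -1.40 (SE 0.29, edgeR adjusted p = 0.196, DESeq2 adjusted p = 0.000451). The DESeq2 call held in 6 of 6 fits with 1 library left out, with adjusted p up to 0.0191. Nupr1 thus stood lower in the TG hearts, as Gdf15 did in TG 1 and TG 3. Ero1l, an oxidase of the endoplasmic reticulum, was at -0.77 (SE 0.24, edgeR adjusted p = 0.207, DESeq2 adjusted p = 0.0545) and at -0.43 without NTG 2. DESeq2 called Ero1l without NTG 3 (adjusted p = 0.0298) and without NTG 1 (adjusted p = 0.0221), settings in which 168 and 1766 of 14774 genes were called. Fgf21, a further hormone of the response, had too few counts to be tested.

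Amino acid transporters stood 1 above and 7 below 0 of 8 tested, with a median of -0.15, which was -0.31 without TG 2 and -0.08 without TG 1. Slc1a4, a carrier of alanine and serine, was at 12.6, 17.6 and 11 CPM in NTG and at 5.84, 8.93 and 6.42 CPM in TG, without overlap. The log2 fold change was -0.96 (SE 0.23, edgeR adjusted p = 0.196, DESeq2 adjusted p = 0.0161), and the DESeq2 call was lost without NTG 2, TG 1 or TG 3, where adjusted p reached 0.213. Slc3a2, the shared heavy chain of several amino acid exchangers, was at -0.37 (SE 0.13, edgeR adjusted p = 0.216).

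The further enzymes of serine, folate, proline and cysteine metabolism were split 8 above and 6 below 0 of 14 tested, with a median of 0.017. Pycr1, which completes proline synthesis in mitochondria, stood at 3.55, 4.41 and 4.40 CPM in NTG and at 1.73, 2.84 and 1.91 CPM in TG. It was lower in every TG heart, at a log2 fold change of -0.92 (SE 0.27, edgeR adjusted p = 0.196, DESeq2 adjusted p = 0.0728). DESeq2 called Pycr1 without NTG 1 (adjusted p = 0.0462) and without TG 2 (adjusted p = 0.037), settings in which 1766 and 777 of 14774 genes were called. Aldh1l1, a cytosolic folate enzyme, was at 2.66, 1.7 and 2.14 CPM in NTG and at 2.31, 10.9 and 14.9 CPM in TG. TG 1 lay within the NTG values, as it did for Ddit3, and the log2 fold change of 2.12 (SE 0.62, edgeR adjusted p = 0.203, DESeq2 adjusted p = 0.00786) came from TG 2 and TG 3. With 1 library left out, DESeq2 kept the adjusted p under 0.05 in 1 of 6 fits, the one without TG 1.

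Cytosolic tRNA synthetases, which ATF4 is known to induce together with Asns, stood 9 above and 12 below 0 of 21 tested, with a median of -0.018. Wars was at a log2 fold change of 0.73 (SE 0.32, edgeR adjusted p = 0.284), or 0.23 without TG 3, with 177 CPM in TG 3 against 79.4 and 77.5 in the other TG hearts. DESeq2 called Wars without TG 2, at 0.945 (adjusted p = 0.0481), a setting in which 777 of 14774 genes were called. Eprs was at -0.22 (SE 0.10, edgeR adjusted p = 0.296). The 12 genes of mitochondrial proteostasis, chaperones and proteases of the matrix and inner membrane, stood 10 above and 2 below 0, with a median of 0.22, which was 0.12 without NTG 2 and, against 0.097 for the members, 0.27 without TG 2. Spg7, a subunit of an inner membrane protease, was at 0.39 (SE 0.12, edgeR adjusted p = 0.204) and Clpx, which unfolds matrix proteins, at 0.28 (SE 0.10, edgeR adjusted p = 0.22). Cardiomyocyte markers also had fitted log2 fold changes above 0, and their part in this list was not tested. Genes of the unfolded protein response of the endoplasmic reticulum were split 8 above and 10 below 0 of 18, with a median of -0.022, with Dnajb9 at 0.25 (SE 0.11, edgeR adjusted p = 0.265), or 0.15 without TG 3, and Pdia3 at -0.27 (SE 0.13, edgeR adjusted p = 0.299).

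**Figure D4:**
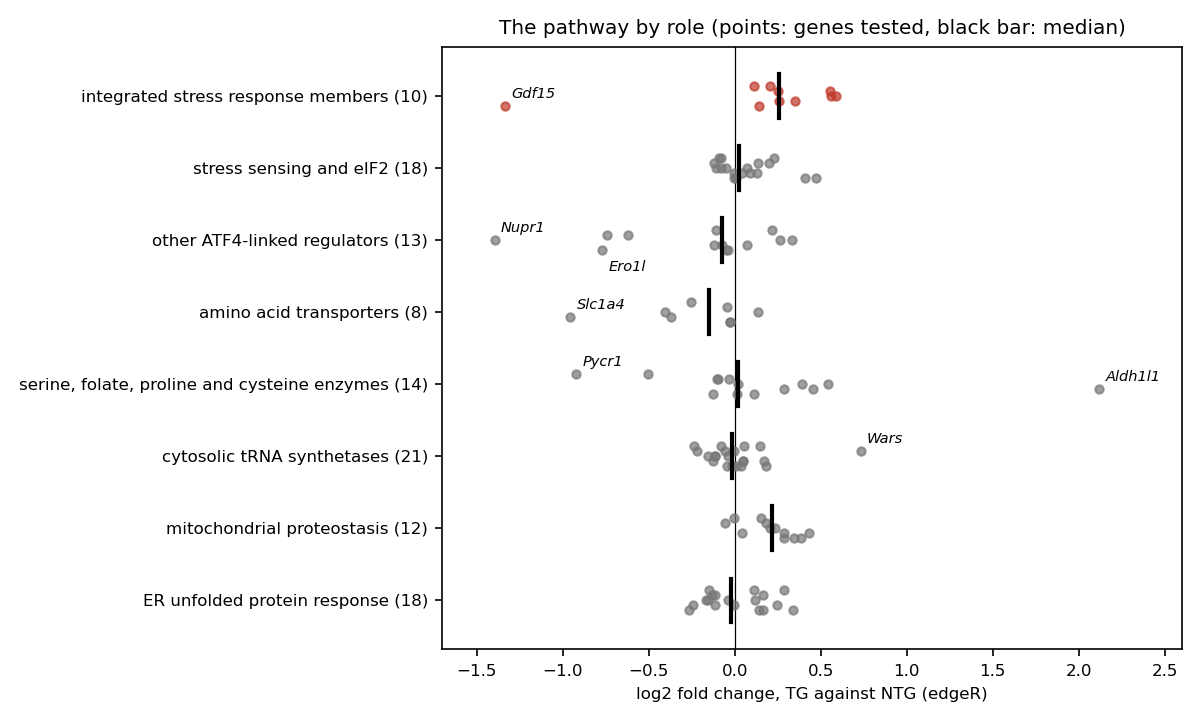
Fitted log2 fold change, TG against NTG, of each tested gene of the 10 members (red) and of 7 further lists of the pathway (grey), with a black bar at each median and the number of genes tested in brackets. The medians of the members, 0.25, and of mitochondrial proteostasis, 0.22, lie to the right of those of the other lists, which run from -0.15 to 0.024.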

How the data were processed

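Poly-A selected RNA-seq was available for 3 TG and 3 NTG left ventricles. The authors mapped the reads, predicted further transcripts with StringTie 1.3.3b, counted reads per gene with featureCounts 1.5.0-p3 and deposited these raw counts without normalization or pooling. The submitters' processing notes name HISAT2, DESeq2 and the human build GRCh38. The genes of the table are mouse genes, and 98.3% of the 54409 found in GENCODE M21 (GRCm38), including all 11 member rows, have identical coordinates there. The strand setting and the treatment of multi-mapping reads are not given in the sources used here.

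Groups came from the genotype labels, with 0 sample columns unmatched. Counts were fitted in R 4.3.3 with edgeR 4.0.16 (TMM, filterByExpr by group, robust quasi-likelihood test, no covariate) on the whole table. The SE is the log2 fold change divided by the root of F, and log2 CPM has a prior count of 2. RPKM are TMM-scaled CPM per kilobase of the deposited gene length. Separate hearts are implied by 1 library per mouse. The p-values of the fits weigh the group difference against the spread of libraries within the groups, estimated in part across genes. Alternatives were RLE scaling, library size alone, leaving out the low-count filter, a minimum of 10 counts in each library, DESeq2 1.42.0, limma 3.58.1 (voom), a replicate block and each library left out. DESeq2 with each library left out, and NTG 1 and TG 2 left out together, were added after the values were seen. The scripts were tested on simulated data. The members and gene lists were chosen with earlier results of these data known. The genes named beside the members are the 2 with the smallest unadjusted p in each list, those called by edgeR or DESeq2, and the 5 nearest to Atf4 in profile. Outside this rule, Nup62 and Mars are named as overlapping genes, atrial markers from the marker lists, Fgf21 as not tested, Hspd1 and Hspe1 for their calls without NTG 1, and Fos, Fosb and Egr1 after their values were seen. Depth was 14863568 to 17581220 counts, so among the members counting error weighs most on Phgdh, at 32 to 63 counts. Pycr1 and Aldh1l1, named from the other lists, were at similarly low CPM in some hearts.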

Additional observations from a re-analysis of the deposited data

How the results depend on the processing

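The call of 0 members held under the other scalings and filters, DESeq2, limma-voom and edgeR with any 1 library left out. It became 1 of 10 with DESeq2 without TG 1 (Ddit3), with DESeq2 without TG 2 (Gdf15), and with edgeR without NTG 1 and TG 2 together (Gdf15), a range of 0 to 1. With 1 library left out, the median log2 fold change of the members ranged with edgeR from 0.097 without TG 2 to 0.391 without TG 1, and with DESeq2 from 0.107 to 0.396 for the same libraries. Of 200 single values of the members under an alternative, 5 changed sign, namely Mthfd2 at -0.050 without TG 2, -0.042 with DESeq2 without TG 2 and -0.178 without NTG 1 and TG 2, and Trib3 at -0.010 and -0.106 under the first and the last of these. With 1 library left out, edgeR put Mthfd2 between -0.050 and 0.493 and Trib3 between -0.010 and 0.272.

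Over the whole table the 0 genes called became 232 with no low-count filter, 583 with DESeq2 and 1622 without NTG 1 and TG 2. With 1 library left out they ranged from 0 to 836 with edgeR, the highest without NTG 1, 7 without TG 2 and 1 without TG 3, and with DESeq2 they were 1766, 125 and 168 without NTG 1, NTG 2 and NTG 3 and 181, 777 and 98 without TG 1, TG 2 and TG 3. In the other lists of the pathway the 0 genes called became 1 of 109 with no filter (Slc1a4), beside 232 of 26858 genes of the table. They became 3 of 104 with DESeq2, beside 583 of 14774, and 11 of 104 without NTG 1 and TG 2, beside 1622 of 14875. With 1 library left out they were 0 to 4 with edgeR and 1 to 11 with DESeq2, again highest without NTG 1. In that setting edgeR called 4 of 105, beside 5.52% of all genes, and DESeq2 11 of 104, beside 1766 of 14774. Without NTG 1, edgeR called Eif2b4, Nupr1, Hspd1 and Hspe1. 

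The list medians that moved by more than their spread were as follows. That of the members was 0.097 with edgeR without TG 2, with a spread of 0.148. That of the tRNA synthetases was -0.099 with library size alone, which shifts the median of all genes to -0.093. That of mitochondrial proteostasis was 0.362 without NTG 1 and TG 2. The other ATF4-linked regulators ranged from -0.169 to 0.036 with 1 library left out, the latter without NTG 2. Their median was 0.040 with DESeq2 without NTG 2 and -0.205 without NTG 1 and TG 2. That of the serine and folate enzymes was 0.105 with DESeq2 without NTG 3. Stress sensing was at -0.059 with library size alone and at 0.009 without NTG 3. With 1 library left out it ranged from 0.007 to 0.034, the former without TG 2. It was 0.042 and 0.038 with DESeq2 without NTG 1 and without TG 1, and 0.075 without NTG 1 and TG 2. With 1 library left out, edgeR medians near 0 changed sign for the ER response (-0.077 to 0.048), the tRNA synthetases (-0.053 to 0.008) and the serine and folate enzymes (-0.027 to 0.096). The causes were not tested.

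The replicate numbers are shared between the groups, and whether they pair hearts is not given in the sources used here. Same-numbered libraries deviated together with correlations of 0.0807, 0.173 and -0.252, and differently numbered ones with -0.253 to 0.167. With 3 hearts a group these values cannot decide whether hearts were paired. With the replicate block edgeR called 231 genes of the table, 2 of the other lists (Nupr1 and Slc1a4) and 0 members, and Gdf15 was at -1.62 (adjusted p = 0.172). With 3 hearts a group, the 95% intervals of Gdf15, Atf3, Mthfd2, Phgdh, Trib3 and Psat1, 6 of the 10 members, are each wider than 1 on the log2 scale.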

Other observations

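The genes outside the lists whose profile over the 6 libraries came nearest to that of Atf4, among 12194 tested genes that varied at least as much, were Armc6, Nfkb2, Lats2, Plxna1 and 9130221H12Rik, with root mean square differences of 0.0345, 0.036, 0.0369, 0.0384 and 0.0435 on the centred log2 CPM scale.

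Atf3 also belongs to the immediate early genes. After the values had been seen, Fos, Fosb and Egr1 were looked up beside it. Fosb stood at 34.9, 31.7 and 34.7 CPM in NTG and at 15.7, 68.8 and 8.21 CPM in TG, highest in TG 2 like Atf3. Fos stood at 23.4, 63.8 and 45.1 CPM in NTG and at 35.6, 44.3 and 16.2 CPM in TG, with its highest value in NTG 2. Egr1 stood at 47.2, 132 and 135 CPM in NTG and at 155, 158 and 51.5 CPM in TG, nearly equal in TG 1 and TG 2.

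Of the marker lists not given above, endothelial markers summed to 1509 to 1741 CPM in NTG and 1620 to 1774 in TG, and smooth muscle and pericyte markers to 1129 to 1467 and 1244 to 1504. Neutrophil markers summed to 9.63 to 254 CPM in NTG and 8.7 to 17.6 in TG, T and B cell markers to 1.74 to 5.6 and 3.68 to 6.11, and atrial myocyte markers to 65.3 to 143 and 30.8 to 217, sums that include Dkk3 at 26.3 to 88.0 CPM. Adipocyte markers summed to 22.4 to 26.7 CPM in NTG and 23.5 to 29.8 in TG, and mesothelial markers to 23.9 to 42.0 and 23.2 to 35.1.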
